A study of Zea mays with 6 samples.

Results

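miR390 and miR393 are conserved plant microRNAs (miRNAs) that act on auxin signalling from different sides, and their mature strands and degradome sites in maize ovaries are described here. Members were chosen by family number: the known entries of the miR390 and miR393 families other than 3p arms, which gave 2 of the 161 known entries (zma-miR390a-5p and zma-miR393a-5p_R-1), and every degradome entry listed for a miRNA of those families, which gave 13 of 471 and included the auxin signaling F-box 2 gene GRMZM2G137451. The 3 entries of the 3p arms, which lie opposite the guide strands in the same hairpins, are given beside the members. Ovaries of the maize inbred line Yu-A474 with incompletely fused carpels (IFC) were compared with ovaries with completely fused carpels (CFC, labelled as wild type), both taken before pollination from unstressed field plants, with CFC and IFC ovaries collected from shared ears. Each phenotype had 2 small RNA libraries and 1 degradome library, and the degradome library pooled RNA of the biological samples, so it carries no replicate. No treatment, transgene or mutant allele was named for either group, and the phenotypes occurred within 1 genotype. In whole ovaries, fewer cells that express a miRNA and less of it per cell cannot be told apart.

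In plants, auxin is perceived by F-box proteins of the TIR1/AFB family, which are the substrate-binding parts of a ubiquitin ligase and mark Aux/IAA repressors for degradation, thereby releasing auxin response factors (ARFs). miR393 guides the cleavage of TIR1/AFB mRNAs. miR390, loaded into ARGONAUTE7, binds the non-coding TAS3 transcripts and sets off the production of trans-acting small interfering RNAs that act on mRNAs of a group of ARF genes.

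The mature sequences are shown because the guide strands decide which mRNAs can be cut. The 3p arms are the listed strands by which the miR393 hairpins can be told apart. They are written 5′ to 3′ with T for U, as in the files, and the capitals mark the seed, bases 2 to 8.
zma-miR390a-5p: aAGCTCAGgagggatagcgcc
zma-miR390a-3p_R-1: cGCTATCTatcctgagctcc
zma-miR393a-5p_R-1: tCCAAAGGgatcgcattgatc
zma-miR393a-3p_L-1: tCAGTGCAatccctttggaat
zma-miR393b-3p_L-1: tCAATGCGatccttttggagg
The suffixes R-1 and L-1 mark a strand that is 1 base shorter than the miRBase entry at its right or left end. Both guides were 21 bases long, and none of the 5 seeds occurred in another of the 161 known entries. miR390a-5p began with A, whereas miR393a-5p_R-1 began with T (U in the RNA), the first base that ARGONAUTE1 prefers in Arabidopsis. Among the known entries that began with A, miR390a-5p had the highest mean level.

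The entries were assigned to 3 hairpins, which are shown because they give the place of each arm. Capitals mark the guide and the opposite arm.
zma-MIR390a: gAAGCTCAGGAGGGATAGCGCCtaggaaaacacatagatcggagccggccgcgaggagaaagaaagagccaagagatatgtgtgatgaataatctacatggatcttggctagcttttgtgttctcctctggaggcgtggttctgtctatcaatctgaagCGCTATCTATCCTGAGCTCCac
zma-MIR393a: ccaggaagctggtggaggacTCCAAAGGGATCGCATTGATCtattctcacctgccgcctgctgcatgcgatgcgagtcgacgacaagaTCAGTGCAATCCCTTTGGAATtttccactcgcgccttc
zma-MIR393b: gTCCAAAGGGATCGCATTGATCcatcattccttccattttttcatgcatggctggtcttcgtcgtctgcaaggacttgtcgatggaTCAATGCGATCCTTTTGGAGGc
The files placed MIR390a at chr1:292655931-292656111, MIR393a at chr2:754231-754356 and MIR393b at chr3:18647140-18647247, all on the plus strand of a genome build not given in the sources used here. Their lengths were 181, 126 and 108 bases, with deposited folding energies of -90.4, -58 and -52.8 kcal/mol. In the deposited fold, 17 of the 21 bases of the miR390a guide were paired, against 20 of 21 in MIR393a and 21 of 21 in MIR393b. The same 21 bases of the miR393 guide stood once in each of the MIR393a and MIR393b hairpins. The base after the guide differed (T22C from MIR393a to MIR393b, counted from 1 at the 5′ end of the guide), so a read of 21 bases could not be assigned to one of these hairpins. The 3p arms could be told apart, with 5 differences over 21 bases (G4A, A8G, C13T, A20G and T21G from MIR393a to MIR393b, counted from the 5′ end of each arm). RefSeq (Zm-B73-REFERENCE-NAM-5.0) lists 2 loci of the miR390 family and 3 of the miR393 family.

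Levels are normalized expression (NE), which the authors defined as reads per 1000000 clean reads of the library (RPM). The commonest value above 0 was 0.717 to 1.15 NE, and 66.3% to 73.8% of the values under 50 NE were whole multiples of it (within 0.01). This step was taken as 1 read, and read numbers and counting intervals below rest on that. It corresponds to totals of 873087 to 1394657 reads a library. The totals of valid reads stated by the study are several times larger. Either NE was scaled to another total or a step held more than 1 read, and in the latter case the intervals would be narrower than printed. By the methods of the study, the replicates were biological ones from different ear rows. Neither these nor the labels say whether they came from separate plants. A p-value therefore rests on spread between these libraries, which the test below pooled largely over all tested miRNAs. CFC replicate 1 stood apart: 21 of 145 tested miRNAs were more than 2 times higher there than in each of the other libraries, against 4, 4 and 7 for CFC replicate 2, IFC replicate 1 and IFC replicate 2. IFC replicate 1 had the smallest implied total (873087) and 42 known entries at 0, against 24 to 26 in the other libraries. Its summed NE of known miRNAs was also the lowest, at 19255 against 26590 to 28278. No miRNA marks the ovary itself. The anther and tassel triggers miR2118 and miR2275 (7 entries) summed to NE 43.4 (CFC replicate 1), 19.3 (CFC replicate 2), 33.2 (IFC replicate 1) and 49.4 (IFC replicate 2), with both miR2275 entries at 0 in IFC, and their part in the results was not tested.

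miR390a-5p was abundant in every library and was lower in both IFC libraries, though the difference did not pass the test. Its NE was 447 and 337 in CFC replicates 1 and 2, and 181 and 221 in IFC replicates 1 and 2. Both IFC libraries lay below both CFC libraries, and the groups did not overlap. CFC ovaries averaged 392 ± 78.4 and IFC ovaries 201 ± 28.3 (SD, n = 2 each), a 1.95-fold difference. These levels equalled 624, 383, 158 and 264 steps of 1 read. On that reading, the exact Poisson 95% intervals, which cover counting error only, were 413 to 484 and 304 to 372 NE for the CFC libraries, and 154 to 211 and 195 to 249 NE for the IFC libraries. The intervals of the CFC replicates did not overlap. Those of the IFC replicates did, which would not hold if a step stood for several reads. miR390a-5p ranked 13, 15, 17 and 19 of 161 in CFC replicates 1 and 2 and IFC replicates 1 and 2, and made up 1.59%, 1.19%, 0.940% and 0.831% of the summed NE of known miRNAs.

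The test was limma on log2(NE + 1), run on all 145 known entries that exceeded an NE of 1 somewhere. Its variance drew on 13.7 prior degrees of freedom, estimated from all tested miRNAs, against 2 residual ones. An SE thus mostly reflects the spread of all tested miRNAs, scarce ones included, and not that of the named miRNA alone. The log2 fold change of miR390a-5p (IFC minus CFC) was -0.95 with an SE of 0.78 (limma, adjusted p = 0.999). It did not pass the threshold of an adjusted p under 0.05, and was -0.75 without CFC replicate 1. None of the 145 miRNAs did (0%), and 1 had an unadjusted p under 0.05. The median log2 fold change of all 145 was -0.02, with 71 higher and 74 lower, and 16 had a lower value than miR390a-5p. Both IFC libraries lay below both CFC libraries for 21 of the 145 miRNAs (14.5%) and above them for 12 (8.28%), so the lack of overlap at miR390a-5p was shared with many entries. The smallest two-sided p that exact permutation of 2 against 2 libraries allows is 0.33. The SE depended on the pseudocount: with a pseudocount of 5, the log2 fold change of miR390a-5p was -0.94 with an SE of 0.35 (limma, adjusted p = 0.994).

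The opposite arm of the same hairpin did not differ in this way. miR390a-3p_R-1 had an NE of 23.7 and 44.8 in CFC and 21.8 and 42.7 in IFC, or 33, 51, 19 and 51 reads. Each phenotype had 1 low and 1 high library, replicate 1 being the lower in both, and the groups overlapped almost wholly. The log2 fold change was -0.09 with an SE of 0.81 (limma, adjusted p = 0.999), and the sign was not stable: it was 0.21 when NE was scaled by the sum of known miRNAs, 0.35 without CFC replicate 2 and 0.38 without IFC replicate 1, against -0.54 without CFC replicate 1 and -0.56 without IFC replicate 2.

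The guide exceeded the opposite arm in every library. The NE of miR390a-5p was 18.9 and 7.51 times that of miR390a-3p_R-1 in CFC and 8.32 and 5.18 times in IFC. The ranges overlapped, since IFC replicate 1 lay above CFC replicate 2. On the log2 scale with 1 added to each NE, the mean ratio was 3.53 in CFC and 2.67 in IFC, a difference of -0.86. Without CFC replicate 1 the difference was -0.21.

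miR393a-5p_R-1 was scarce, and its level turned on 1 library. Its NE was 36.3 and 3.51 in CFC replicates 1 and 2, and 5.35 and 4.32 in IFC replicates 1 and 2. CFC replicate 1 alone was high, at 6.80 times the next highest library, while the other CFC library was the lowest of all, so the groups overlapped. CFC ovaries averaged 19.9 ± 23.2 and IFC ovaries 4.83 ± 0.722 (SD, n = 2 each). The low libraries held about 4 to 5.17 reads of this guide, and the values were not whole multiples of 1 read in 3 libraries, so no counting interval was computed there. In CFC replicate 2, where the value was exactly 4 reads, the exact Poisson 95% interval ran from 0.958 to 9.0 NE and covered both IFC values.

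The log2 fold change of miR393a-5p_R-1 was -1.16 with an SE of 0.95 (limma, adjusted p = 0.999), which did not pass the threshold. Without CFC replicate 1 the estimate was 0.36, the opposite direction, and without CFC replicate 2 it was -2.68. The direction of the miR393 difference thus depended on a CFC library, the one in which many other miRNAs were also high.

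The 3p arms of miR393, which separate the hairpins, were at the edge of detection. miR393a-3p_L-1 reached 12.2 NE (17 reads) in the first CFC replicate, against 0.439 in the second, and 0 and 0.418 in IFC replicates 1 and 2. The 2 low values above 0 equal 0.5 of a read each, so the groups, though they did not overlap, were told apart only by CFC replicate 1. miR393b-3p_L-1 had 2 reads and 1 read in the CFC libraries (NE 1.43 and 0.879) and was at 0 in both IFC libraries. The exact Poisson 95% intervals for 0 reads reached 4.23 NE in IFC replicate 1 and 3.09 NE in IFC replicate 2, so no fold is given. For miR393a-3p_L-1 the log2 fold change was -1.87 with an SE of 0.97 (limma, adjusted p = 0.999), the lowest value of the 145. It was -3.47 without CFC replicate 2 and -0.89 with a pseudocount of 5, and without CFC replicate 1 the entry no longer passed the filter of an NE above 1. The 3p arms of MIR393a and MIR393b stood at 17 and 2 reads in CFC replicate 1 and, in the reverse order, at 0.5 and 1 read in CFC replicate 2.

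**Figure D1:**
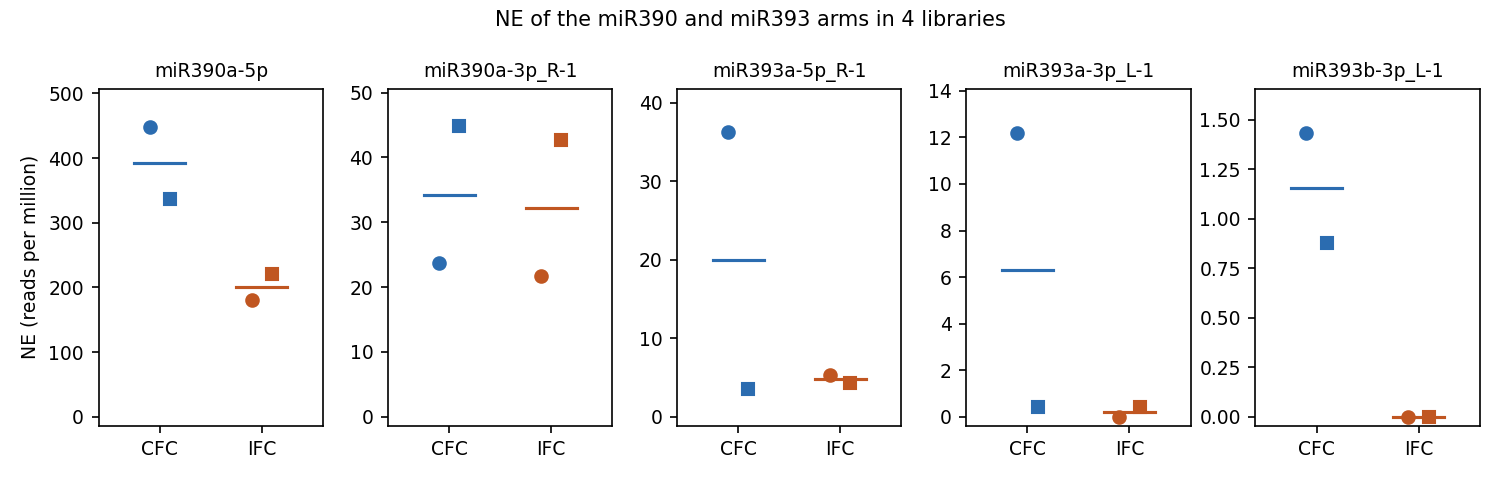
NE (RPM) of the 5 miR390 and miR393 strands in CFC (blue) and IFC (orange) ovaries; circles are replicate 1, squares replicate 2, and lines the mean of 2 libraries, with a separate scale in each panel. miR390a-5p was lower in both IFC libraries (181 and 221) than in both CFC libraries (447 and 337), whereas miR393a-5p_R-1 and miR393a-3p_L-1 were high in CFC replicate 1 only.

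The guides differed greatly in level. miR390a-5p exceeded miR393a-5p_R-1 by 12.3 and 95.8 times in CFC, and by 33.9 and 51.1 times in IFC. By mean NE over the 4 libraries, they ranked 15 and 68 of 161. Both are levels on the NE scale, from strands of equal length.

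The known miRNAs of other families with the nearest profiles, by the distance between log2(NE + 1) values centred on their mean over 4 libraries, differed between the guides. For miR390a-5p, among 68 miRNAs with a mean NE of at least 10, they were zma-miR167e-5p at a distance of 0.32, zma-miR166j-3p at 0.49 and zma-miR166a-3p at 0.56, where the median distance was 1.48. zma-miR167e-5p had an NE of 23.8 and 13.5 in CFC and 9.16 and 9.51 in IFC. For miR393a-5p_R-1, among 69 miRNAs, they were zma-miR169p-5p at 0.54, zma-miR159a-3p at 0.78 and zma-miR159c-3p_L-1R-1 at 0.97, where the median distance was 2.64. zma-miR169p-5p stood at 217 and 18.2 NE in CFC replicates 1 and 2, and at 40.6 and 22.0 in IFC. Those 3 miRNAs were, like the miR393 guide, highest in CFC replicate 1, which the choice by nearest profile largely fixed.

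Other miRNAs that act on auxin response were read beside the members. miR160 and miR167, which guide the cleavage of ARF mRNAs, had 7 guide entries among the 145 tested. None passed the test, and all 7 had a negative log2 fold change, with a median of -0.74 against -0.02 over all 145. The 7 include length and base variants within each family, so they are not 7 independent miRNAs. Some were near the level of 1 read: cca-miR160b_L+3 lay between 0.573 and 1.67 NE, and bdi-miR167a_1ss21AT between 0 and 2.86 NE. Both IFC libraries lay below both CFC libraries for 1 of the 7, against 14.5% of all tested. Without CFC replicate 1, 4 of the 7 were negative and 3 positive, with a median of -0.07, and with NE scaled by the sum of known miRNAs 5 were negative and 2 positive. The most abundant miR160 guide, zma-miR160a-5p, had an NE of 212 and 76.7 in CFC and 72.0 and 107 in IFC. The most abundant miR167 guide, zma-miR167a-5p, had 34.7 and 7.53 in CFC and 14.2 and 13.1 in IFC. In both, as in the miR393 guide, CFC replicate 1 was the highest library, and CFC replicate 2 lay within the IFC range for zma-miR160a-5p and below it for zma-miR167a-5p.

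**Figure D2:**
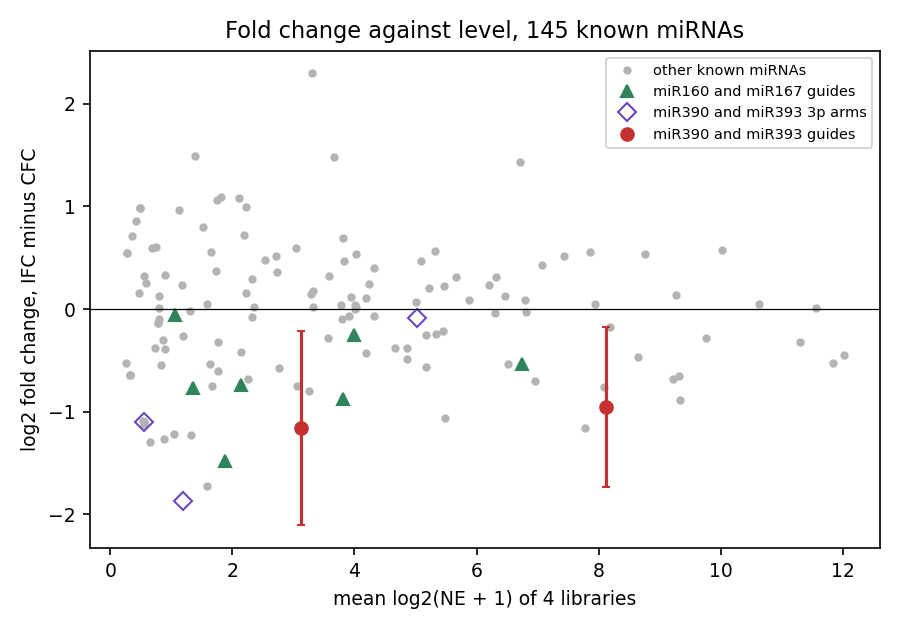
Log2 fold change (IFC minus CFC) from limma against the mean log2(NE + 1) of 4 libraries for 145 known miRNAs; error bars on the miR390 and miR393 guides are 1 SE. The miR390a-5p value (-0.95) and the miR393a-5p_R-1 value (-1.16) lie below 0, and neither passed an adjusted p under 0.05.

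The degradome libraries hold 5′ ends of RNAs that have a poly(A) tail and no cap, among them cut mRNAs. Signal was deposited as TPB, tags per 1000000000 tags, and 1 tag was worth 59.1 TPB in IFC and 59.9 TPB in CFC. Signals of a fraction of a tag were read as tags divided equally among the transcripts listed for that miRNA with the same signal. Each site had a category in each library: 0 for the single highest peak of its transcript, 1 for a peak that shares the maximum, 2 for a peak above the median, 3 for a lower peak and 4 for 1 read. The deposited p-value is that of the match between a peak and the miRNA, computed within 1 library. Lower alignment scores mean fewer mismatches between miRNA and site.

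The miR393 guide had 6 entries, which come from 1 sequence listed under 2 names (miR393a-5p_R-1 and miR393b-5p_R-1) on 3 transcripts of 2 genes, both annotated as auxin signaling F-box 2, an auxin receptor of the TIR1/AFB family. On GRMZM2G137451 the cut lay at position 1690 of transcript T01 and 1985 of T02, with an alignment score of 3. On GRMZM5G848945 it lay at position 1748 of T02, with a score of 1. In all 13 entries of both families the listed cut was opposite base 10 of the miRNA, counted from its 5′ end with the last base of the aligned range opposite base 1. The search of the study recognized only cuts at or next to that base, so this place was largely a condition of being listed. Where range and strand differed in length, as on GRMZM5G848945, a gap may shift the count.

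At the miR393 site each of the 3 transcripts was given the same signal, 276 TPB in IFC and 520 TPB in CFC. These values equal 14 tags in IFC and 26 tags in CFC shared by 3 transcripts, so the signal could not be assigned to one of the 2 genes. The site was in category 0 in both libraries on GRMZM2G137451, with deposited p-values of 0.00601 in IFC and 0.00616 in CFC. The same tags were in category 2 on GRMZM5G848945 (deposited p-values of 0.363 and 0.380), whose alignment was the better of these. Of the 131 gene sites in the table, 29 were in category 0 in both libraries (22.1%), among them the site of GRMZM2G137451. By mean TPB, the signal given to each transcript with shared tags not summed, that site ranked 31 of 131. The tags by family given below are summed over the transcripts that share them.

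The signal at the miR393 site was lower in IFC, within counting error of no difference. The IFC over CFC ratio of TPB was 0.531, with an exact conditional 95% interval of 0.256 to 1.05 that covers counting error between 2 libraries only and includes 1. With 1 degradome library a phenotype the difference has no replicate check. Among the 81 gene sites with signal in both libraries the median ratio was 0.877, 58 were lower in IFC, and 22 had a ratio at or below that of the miR393 site (both of its genes included). Divided by that median, the ratio of the miR393 site was 0.606. The guide itself had a mean NE of 4.83 in IFC and 19.9 in CFC, from libraries of which CFC replicate 1 alone was high.

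miR390 left almost no tags. The guide miR390a-5p was listed on 3 transcripts of 2 genes annotated as leucine-rich repeat family proteins, GRMZM2G121820 (position 865) and GRMZM5G815009 (position 506 of T01 and T02), each with a score of 4. The signal was 0 in IFC and 20.0 TPB on each transcript in CFC, which is 1 tag shared by 3 transcripts, in category 4 (deposited p-value of 0.837). With 3 tags taken as the limit for a count of 0, the IFC signal could be up to 177 TPB, so no difference was detectable at this depth. The opposite arm miR390a-3p_R-1 was listed on 4 transcripts of GRMZM2G010944, annotated as a chaperone-binding ATPase activator, with 14.8 TPB each in IFC, or 1 tag in all, and 0 in CFC (category 4, deposited p-value of 0.785). The annotation of 0 of the 471 entries named a TAS or trans-acting transcript, and TAS3 transcripts, the known partners of miR390, were not analysed here. Of the 5 genes with miR390 or miR393 entries, 4 matched a RefSeq gene.

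Level and tags went in opposite order for the members. Summed over the entries of a family, miR390 ranked 8 and miR393 ranked 19 by mean NE among the 21 families with degradome entries (330 and 16.2 NE). By the mean tags at the strongest site, miR393 ranked 13 with 20 tags, while miR390 and miR528 were tied for the lowest place with 0.5 tags, which is 1 tag in 1 library. For miR390 the site of the guide and that of the opposite arm each held 1 tag. No entry was annotated as a TAS transcript, so these tags do not measure the action of miR390 on TAS3. In 3 of the 21 families the strongest site had a mean of 1 tag or less, and besides miR390 these were miR528 and miR529, at 37.5 and 34.6 NE. miR160, at 136 NE, had the strongest site of all, with 886 tags in IFC and 1113 in CFC.

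**Figure D3:**
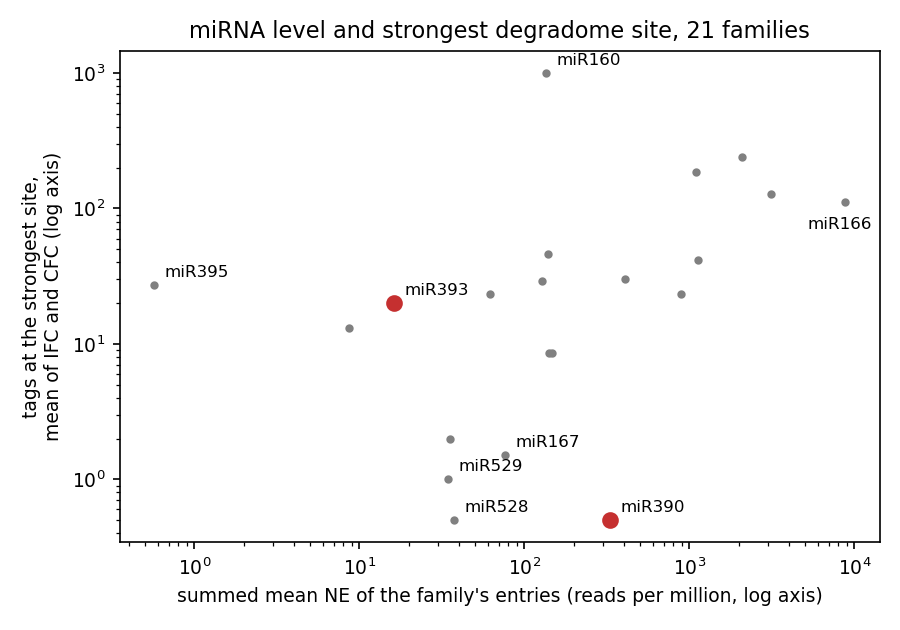
Summed mean NE of each miRNA family (x, log axis) against the mean number of tags at its strongest degradome site over the IFC and CFC libraries (y, log axis), for 21 families. miR393 (16.2 NE, 20 tags) lies within the range of the other families, and miR390 (330 NE, 0.5 tags) lies at the lower edge. No entry of miR390 was annotated as a TAS transcript.

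Across the table, 6 of 113 genes were annotated with auxin: the 2 auxin signaling F-box 2 genes of miR393, 2 ARF genes of miR160 and 2 of miR167, and none of miR390. The strongest miR160 site, on GRMZM2G159399 (auxin response factor 16), had an IFC over CFC ratio of 0.785 with an interval of 0.718 to 0.858. That whole interval lay inside the interval of the miR393 site. A second site of the same gene, with 16 and 18 tags, had a ratio of 0.877 (0.418 to 1.82). The site of GRMZM2G005284 had 3 tags in IFC and 2 in CFC. The miR167 site on GRMZM2G078274 and GRMZM2G475882 (auxin response factor 6) had 1 tag in IFC and 2 in CFC. The miR393 site thus had the second largest number of tags among the auxin receptor and ARF genes when each gene is counted by its strongest site.

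**Figure D4:**
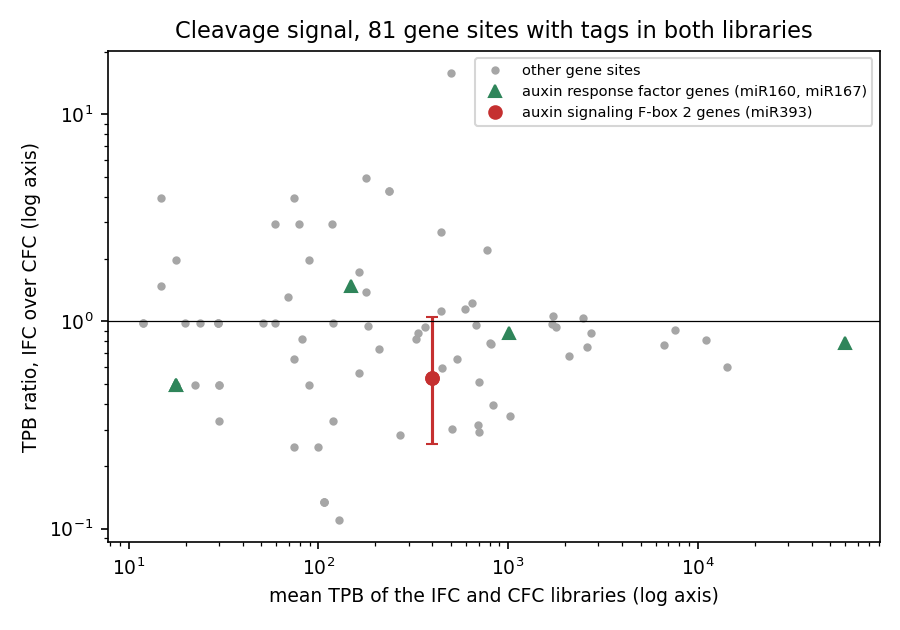
IFC over CFC ratio of TPB against mean TPB (both log axes) for the 81 gene sites with tags in both degradome libraries; the bar on the miR393 site of GRMZM2G137451 and GRMZM5G848945 is the exact 95% counting interval (0.256 to 1.05). The miR393 ratio of 0.531 lies among those of sites with a similar signal, and the interval reaches the line at 1.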

How the data were processed

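Small RNA was sequenced from CFC and IFC ovaries, and degradome tags from pooled RNA of each phenotype. The authors mapped clean reads to miRBase 21 hairpins using ACGT101-miR, and the NE that they deposited for known miRNAs is in RPM, reads scaled to 1000000 clean reads. The CleaveLand 3.0.1 output that the authors deposited holds the degradome signal (TPB), a category, a p-value and an alignment score for each site. Hairpin GC percent and folding energy were also deposited. The genome build is not given in the sources used here, and the extract text in the labels names another tissue, so it was not used. A table of predicted targets that repeats degradome entries was not used.

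NE was analysed as log2(NE + 1) with limma 3.58.1 in R 4.3.3 (phenotype as the only term, two-sided, Benjamini-Hochberg over the 145 known entries that exceeded an NE of 1 somewhere, threshold 0.05). The fit was tested on simulated data whose planted changes were much larger than the estimates of the members. That test does not show whether changes of their size could be detected. Group and library names came from the labels. The NE of 1 read was taken as the commonest value above 0. The totals this implies lie below the valid reads given in the study, so read numbers and small RNA intervals are conditional on it. Intervals were computed with scipy 1.17.1 and cover counting error only. A site's tags are its TPB times the number of transcripts that share it, divided by the TPB of 1 tag. They were whole (within 0.01) for 67.6% of 414 signals, and for those of miR390 and miR393. Gene sites are distinct combinations of gene and signal.

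Named were all entries of families 390 and 393, all their degradome entries, the 3 nearest profiles of each guide (mean NE of at least 10), and the auxin list of miR160 and miR167 guides and auxin-annotated genes, with the most abundant of each family. The members and lists were chosen with earlier results of these data known. Alternatives were other pseudocounts, filters and scalings, a replicate block, a robust fit and leaving out each library.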

Additional observations from a re-analysis of the deposited data

How the results depend on the processing

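No known miRNA was called under any of the 13 alternatives to the limma fit (other pseudocounts, filters, scalings, a replicate block, a robust fit, leaving out each library). miR390a-5p stayed negative in all 13, between -1.16 and -0.64. The filters, the replicate block, the robust fit and counting equal sequences once left the estimates of both guides unchanged by design. For miR390a-5p, neither a pseudocount nor leaving out a single library could turn the sign, since both IFC values lay below both CFC values. Only the rescalings could have turned it. miR393a-5p_R-1 stayed negative in 12 and turned to 0.36 without CFC replicate 1. Leaving out single libraries gave -1.16 to -0.75 for miR390a-5p and -2.68 to 0.36 for miR393a-5p_R-1. Scaling by the sum of known NE moved the median of all miRNAs from -0.02 to 0.25, with 88 higher and 56 lower. With the replicate number as a block, 0 were called, 3 had an unadjusted p under 0.05, and the log2 fold changes were -0.95 and -1.16. The labels do not say that the numbers pair libraries. Across the 145 tested miRNAs, the log2 difference between the CFC replicates had a correlation of 0.25 with that between the IFC replicates. The miR390a guide to opposite arm difference ranged from -1.51 to -0.21 when single libraries were left out and was -0.86 with either other pseudocount. The miR393 site ratio was 0.606 to 0.673 after scaling and 0.548 from the rounded tags of 1 transcript. The opposite arm miR390a-3p_R-1 changed sign when single libraries were left out (-0.56 to 0.38). The miR393 strands had a few reads or fewer in 3 libraries and the miR390 sites 1 tag each, so values there rest on very small counts.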
